A study of Mus musculus with 12 samples.

Results

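The genes described here are 9 regulators of cellular sterol content: Srebf1, Srebf2, Scap, Insig1, Insig2, Nr1h2, Abca1, Abcg1 and Mylip. They were chosen by name, for known roles in SREBP processing and in sterol uptake and efflux, from the 21671 genes of the table. Earlier results of these data were known at that point, so counts of members are no independent test. All 9 were found there, and all 9 were among the 9745 genes tested, those with at least 1 RPKM (reads per kilobase of gene length, scaled to the library total) in at least 3 of the 12 libraries.

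RNA-seq had been run on FL5.12 cells, a mouse lymphoid precursor line of BALB/c origin that needs interleukin 3 to grow. All libraries came from cells that carried MycER, a Myc fusion protein switched on by 4-hydroxytamoxifen (OHT), delivered by the retroviral vector pBabe-bleo and kept by antibiotic selection of the transduced cells. IACS-010759 is an inhibitor of mitochondrial complex I, and the study gave it to cells passaged in medium with reduced glucose. The 4 groups had 3 replicates each: untreated; OHT, with 100 nM OHT for 72 h, the first 48 h of it as priming; IACS, with 135 nM IACS-010759 for 24 h; and OHT_IACS, with OHT as in the OHT group and the inhibitor in the last 24 h.

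Library totals, worked out from the steps between RPKM values, lay between 10376530 and 14550158 reads, of which 4199266 to 5762340 were on genes. Relative to untreated replicate 1, the totals of the OHT libraries were 0.776, 1.04 and 0.805, so OHT replicates 1 and 3 were the shallowest of the 12. The 9 genes differed widely in the reads behind them. Mylip had 36 to 112 reads in a library and Abca1 55 to 243, while Srebf1 had at least 877 in each.

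The labels call FL5.12 a prolymphocytic line. Of 10 B-lineage marker genes, 8 were under 1 RPKM in every library, and Pax5, Blnk and Rag1 were at 0 in all 12. Cd79b was the most abundant of the 10, at 1.05 to 3.64 RPKM, and the sum over the list was 2.09 to 5.11 RPKM. The cells are therefore named here by line and not by B-lineage stage. The IL-3 receptor chain Csf2rb stood at 39.8 to 48.5 RPKM. The erythroid factor Gata1, at 26.0 to 32.9 RPKM, and the myeloid genes Emr1, at 16.5 to 28.8, and Mpo, at 8.65 to 13.7, were also present in every library. T cell (4 of 4), stromal (3 of 3) and hepatocyte (2 of 2) markers stayed under 1 RPKM throughout.

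SREBPs are transcription factors made as precursors in the membrane of the endoplasmic reticulum, where SCAP binds them. When sterols are scarce, SCAP escorts them to the Golgi for cleavage, and the released fragment turns on genes of sterol and fatty acid synthesis and of lipoprotein uptake. When sterols are plentiful, INSIG proteins hold SCAP back, and oxysterols activate the liver X receptors (LXRs), which raise the sterol exporters ABCA1 and ABCG1 and the ubiquitin ligase MYLIP.

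The OHT comparison was set up to ask what MycER activation alone does, but every library carries MycER, so effects of MycER activation and of OHT itself cannot be told apart here. Srebf2 and Insig1 rose, and Srebf1, Scap, Nr1h2, Abca1 and Abcg1 fell: 7 of the 9 genes passed the test (limma, Benjamini-Hochberg adjusted p under 0.05), beside 36.4% of all genes tested. Of the 9, 2 rose (18.2% of all genes did) and 5 fell (also 18.2%). Abca1 and Abcg1 moved furthest, with log2 fold changes of -1.24 and -0.66, and the other changes that passed lay between -0.27 and 0.34. Only 4 of the 9 passed when untreated replicate 1, untreated replicate 3 or OHT replicate 1 was left out, with RPKM as deposited, or with library totals (log2) added to the model, and Srebf1, Srebf2, Abca1 and Abcg1 were the 4 in each case.

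The response to the inhibitor was measured in nonprimed cells (IACS against untreated) and in primed cells (OHT_IACS against OHT), which share no library. In nonprimed cells Insig1, Srebf1 and Srebf2 fell and Abcg1 rose, so that 4 of 9 passed, beside 15.9% of all genes. Of the 9, 1 rose (8.15% of all genes) and 3 fell (7.74%). Over all genes 794 rose and 754 fell, while with RPKM as deposited 867 rose and 469 fell; the 4 members passed either way. With all libraries 1548 genes were called. Leaving out untreated replicate 1 gave 951, leaving out untreated replicate 2 gave 998 and leaving out IACS replicate 3 gave 1026, and the same 4 members passed in each of these fits.

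In primed cells Insig1, Srebf2 and Insig2 fell under the inhibitor and Abcg1 and Abca1 rose, which made 5 of 9, beside 23.7% of all genes. Of the 9, 2 rose (11.9% of all genes) and 3 fell (11.8%). Without OHT_IACS replicate 1 only Insig1, Insig2 and Abcg1 of the members passed. Over all genes 2310 passed, and 1524 without OHT_IACS replicate 3. The comparison of OHT_IACS with IACS asks what OHT does in the presence of the inhibitor. Srebf2 and Insig1 rose and Abcg1 and Insig2 fell, 4 of 9, beside 26.5% of all genes; 2 rose (12.3% of all genes) and 2 fell (14.2%). The untreated libraries serve in both the OHT and the IACS comparison, the OHT libraries in OHT against untreated and OHT_IACS against OHT, and the OHT_IACS libraries in the last pair of comparisons, so these are not independent of each other.

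**Figure D1:**
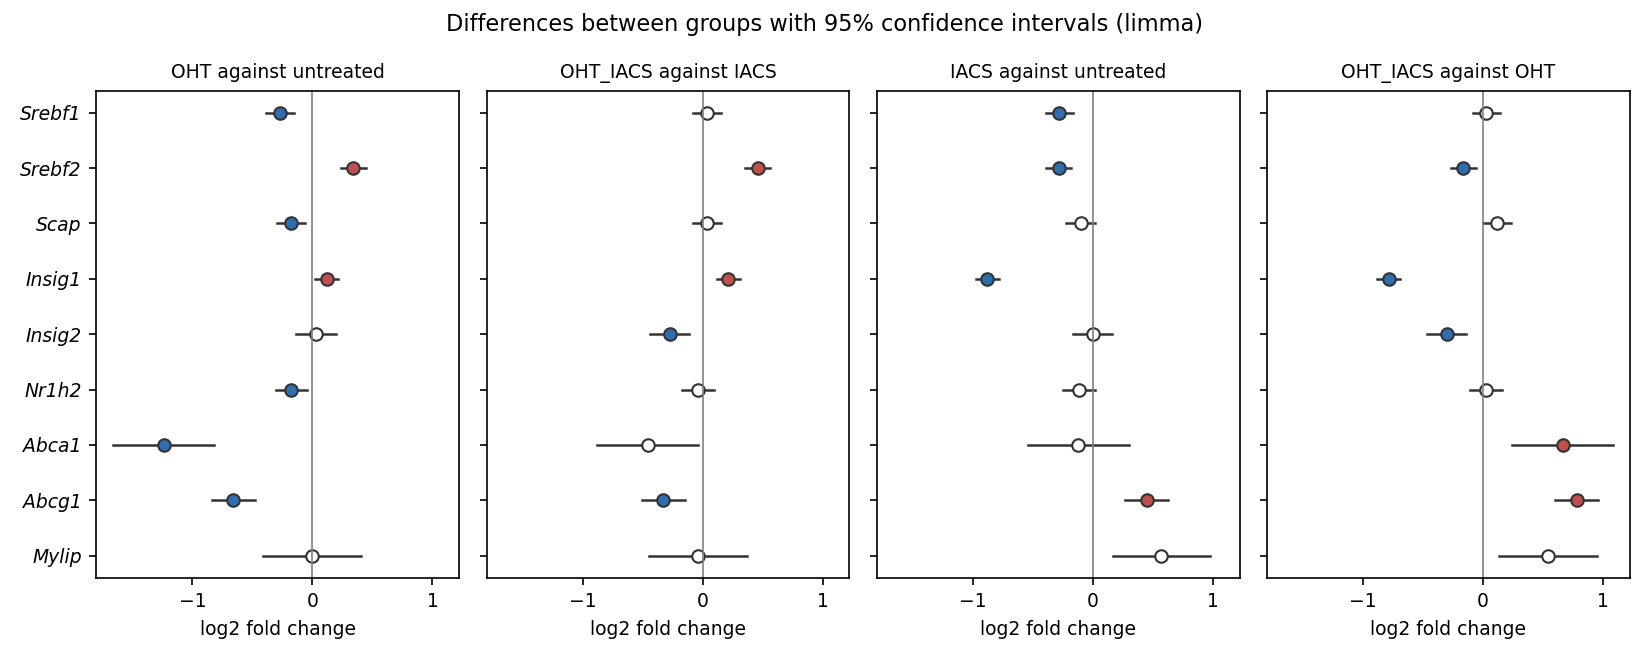
Log2 fold changes of the 9 genes in the 4 comparisons, as points with 95% confidence intervals, filled in red (rose) or blue (fell) where the adjusted p was under 0.05. Insig1 lies at -0.88 and -0.79 in the inhibitor comparisons, and Abca1 at -1.24 in OHT against untreated.

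Srebf2 encodes SREBP2, the form that mainly drives sterol synthesis and uptake genes. It stood at 13.8, 13.0 and 14.1 RPKM in the untreated libraries and at 16.7, 18.5 and 17.5 in the OHT libraries. It was lower under the inhibitor in nonprimed cells, at 11.3, 11.4 and 11.5 RPKM, and lay at 14.8, 16.1 and 16.0 RPKM in the OHT_IACS libraries. The 4 groups did not overlap at all, in the order OHT (17.6 ± 0.867 RPKM, SD, n = 3), OHT_IACS (15.6 ± 0.716), untreated (13.6 ± 0.55) and IACS (11.4 ± 0.095). Srebf2 was thus raised by OHT with and without the inhibitor and lowered by the inhibitor with and without OHT. The log2 fold change was 0.34 (SE 0.05, limma adjusted p 0.00013) for OHT against untreated and 0.46 (SE 0.05, adjusted p 1.8e-05) for OHT_IACS against IACS. For the inhibitor it was -0.28 (SE 0.05, adjusted p 0.0017) in nonprimed and -0.17 (SE 0.05, adjusted p 0.025) in primed cells. The last of these calls was lost without OHT replicate 2 (adjusted p 0.064) or OHT_IACS replicate 1 (0.1), with quantile normalization (0.089) and in a fit of only the groups compared (0.062). These are bulk libraries, in which fewer cells with a transcript and less of it per cell cannot be told apart.

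The promoter windows of Srebf2, Insig1 and Abca1 are shown because these genes moved in several comparisons, Srebf2 and Insig1 in the same direction as each other each time. Abcg1 passed in every comparison between groups but had no window in the set searched. They run 5′ to 3′ on the strand of the gene, from 250 bases before to 50 after the start, and come from RefSeq (GRCm38.p6). Srebf2 lies at chr15:82147019-82147318 (+ strand).
Srebf2 promoter: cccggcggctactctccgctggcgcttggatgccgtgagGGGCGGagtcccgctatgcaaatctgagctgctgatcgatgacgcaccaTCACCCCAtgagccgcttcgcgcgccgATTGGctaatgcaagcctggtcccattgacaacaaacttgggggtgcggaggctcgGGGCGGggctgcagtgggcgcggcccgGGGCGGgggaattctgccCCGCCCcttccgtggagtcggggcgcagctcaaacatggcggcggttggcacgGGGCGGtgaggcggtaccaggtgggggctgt
Capitals mark the motifs searched on both strands: the E-box CACGTG, read by Myc and Max among others (in 7.15% of all 32851 windows), the GC box GGGCGG (35.7%), CCAAT (37.4%), the sterol regulatory element core TCACNCCAC (1.24%) and a shortened core TCACNCCA (4.36%), which was added after the first search. The longer core was in 0 of the 13 windows of the 8 members with a window, and the shortened core was in the Srebf2 window alone, 162 bases before the start. That window also held 5 GC boxes and 1 CCAAT, and it held no E-box. A match describes the letters and is not evidence of binding.

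Srebf1 encodes SREBP1a and SREBP1c, forms with different first exons that gene-level values do not separate, and which drive fatty acid synthesis genes in particular. It stood at 23.9, 24.7 and 25.8 RPKM in the untreated libraries, at 19.7, 22.4 and 20.5 in the OHT libraries, at 21.9, 20.4 and 20.1 in the IACS libraries and at 21.6, 22.4 and 19.7 in the OHT_IACS libraries. Every treated library was below every untreated one, and the 3 treated groups overlapped each other. Srebf1 fell by 0.27 on the log2 scale in OHT against untreated (SE 0.05, limma adjusted p 0.0015) and by 0.28 in IACS against untreated (SE 0.05, adjusted p 0.0034). In primed cells the inhibitor gave 0.03 (95% CI -0.09 to 0.14, adjusted p 0.77), and OHT under the inhibitor gave 0.04 (95% CI -0.08 to 0.15, adjusted p 0.68). Exons of Srebf1 overlap those of Rai1 on the opposite strand in the GRCm38 annotation, and whether reads were counted by strand was not stated in the sources used here.

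Scap encodes the escort protein of the SREBPs. Its values were 18.8, 17.8 and 18.9 RPKM untreated, 15.6, 17.1 and 16.9 with OHT, 17.8, 17.2 and 17.6 with the inhibitor and 19.4, 17.7 and 16.7 with both. In RPKM as deposited, the OHT libraries were all below the untreated and the IACS ones, and the untreated, IACS and OHT_IACS groups overlapped. After scaling, all IACS libraries were below all untreated ones, and all OHT_IACS libraries were above all OHT ones. Scap fell by 0.18 in OHT against untreated (log2, SE 0.05, limma adjusted p 0.021), a call that was lost without untreated replicate 1 (0.067), untreated replicate 3 (0.065) or OHT replicate 1 (0.061), with RPKM as deposited (0.051) and with the library total as a covariate (0.078). The inhibitor gave -0.10 (95% CI -0.22 to 0.02, adjusted p 0.23) in nonprimed and 0.11 (95% CI -0.00 to 0.23, adjusted p 0.15) in primed cells, and 0.05 (adjusted p 0.52) in primed cells without OHT_IACS replicate 1. Exons of Scap overlap those of 5830462I19Rik on the opposite strand, a gene that is not in the table, so the same limit on strand holds as for Srebf1.

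Insig1 encodes a membrane protein that retains SCAP, and it is itself a target gene of the SREBPs. It stood at 24.0, 24.1 and 23.7 RPKM in the untreated libraries and at 13.9, 13.8 and 12.1 with the inhibitor. In primed cells it stood at 25.4, 26.5 and 27.4 RPKM without the inhibitor and at 15.1, 15.7 and 15.1 with it. Each of the 6 libraries with the inhibitor was thus below each of the 6 without it, and the OHT groups were above their counterparts without OHT. The inhibitor lowered Insig1 by a log2 fold change of -0.88 (SE 0.04, limma adjusted p 7.8e-08) in nonprimed and -0.79 (SE 0.04, adjusted p 1.4e-07) in primed cells. OHT raised it by 0.21 under the inhibitor (SE 0.04, adjusted p 0.003). Without the inhibitor the rise was 0.12 (SE 0.04, adjusted p 0.048), and this call held in 6 of 23 alternative fits: it was lost when any library other than OHT replicate 2 and IACS replicate 3 was left out (adjusted p 0.056 to 0.14). With quantile normalization the rise was 0.07 (adjusted p 0.18), and with a block by replicate number the call was lost (0.06).

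The Insig1 window lies at chr5:28071162-28071461 (+ strand).
Insig1 promoter: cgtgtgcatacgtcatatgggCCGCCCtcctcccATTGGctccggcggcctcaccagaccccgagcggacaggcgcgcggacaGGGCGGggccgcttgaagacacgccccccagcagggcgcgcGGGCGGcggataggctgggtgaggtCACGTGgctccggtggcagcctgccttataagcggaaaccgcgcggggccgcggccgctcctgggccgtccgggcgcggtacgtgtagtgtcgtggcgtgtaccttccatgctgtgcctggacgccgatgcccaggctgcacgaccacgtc
It held 1 E-box, 101 bases before the start, with 3 GC boxes and 1 CCAAT on the other strand, 216 bases before the start.

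Insig2, a relative of Insig1 with the same role in holding SCAP, was measured at 3.11, 2.93 and 3.25 RPKM untreated, 3.15, 3.35 and 3.14 with OHT, 3.12, 3.24 and 3.10 with the inhibitor and 2.46, 2.74 and 2.55 with both. The OHT_IACS libraries were below all 9 others, which overlapped. Insig2 fell by 0.30 in OHT_IACS against OHT (log2, SE 0.08, limma adjusted p 0.012) and by 0.27 in OHT_IACS against IACS (SE 0.08, adjusted p 0.016). The first call was lost in a fit of only the groups compared (0.055), and the other without IACS replicate 2 (0.055) or OHT_IACS replicate 1 (0.063) and with voom (0.061). In nonprimed cells the inhibitor gave 0.00 (95% CI -0.16 to 0.16), and OHT alone gave 0.03 (95% CI -0.13 to 0.19).

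**Figure D2:**
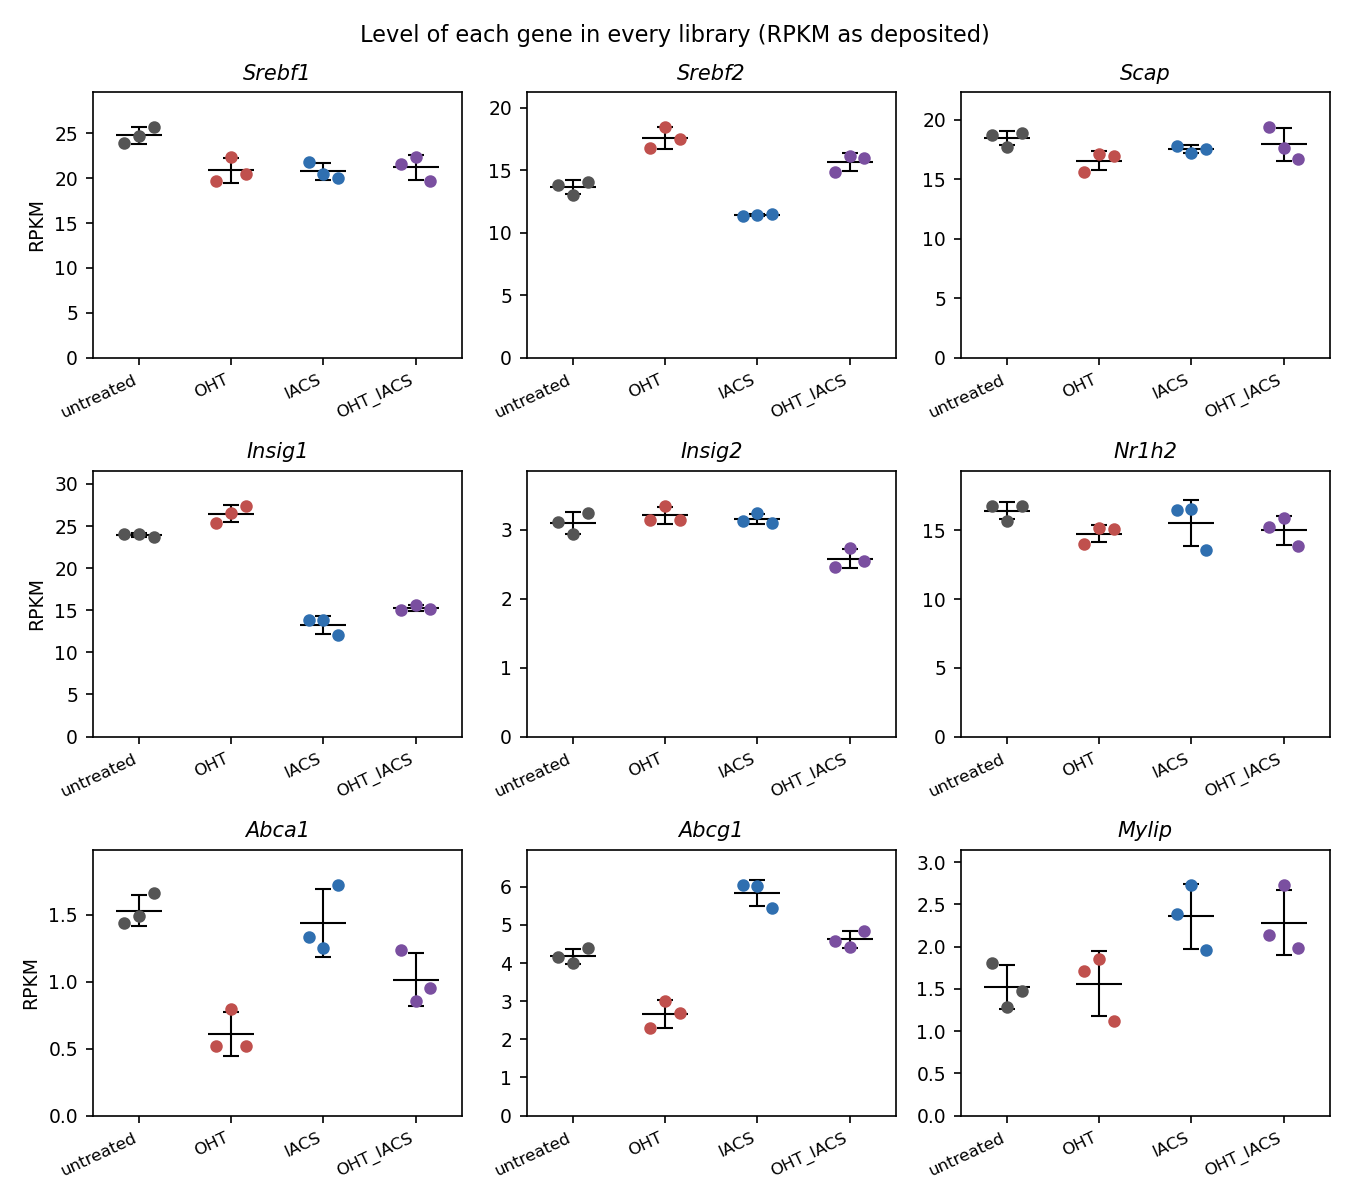
RPKM of each of the 9 genes in the 12 libraries by group, as points, with the mean and SD of each group of 3. The 6 libraries with the inhibitor lie below the 6 without it for Insig1, and the OHT libraries lie below all others for Abca1 and Abcg1.

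Nr1h2 encodes LXR beta, a receptor for oxysterols. It stood at 16.8, 15.7 and 16.8 RPKM untreated, 14.0, 15.2 and 15.1 with OHT, 16.5, 16.5 and 13.6 with the inhibitor and 15.2, 15.9 and 13.9 with both. The OHT libraries were below the untreated ones, and IACS replicate 3 and OHT_IACS replicate 3 were the lowest of their groups. Nr1h2 fell by 0.17 in OHT against untreated (log2, SE 0.06, limma adjusted p 0.04). That call was lost without untreated replicate 1, untreated replicate 3 or any OHT library (adjusted p 0.051 to 0.12), with no filter (0.064), with RPKM as deposited (0.13), with no trend (0.063) and with the library total as a covariate (0.35), and it held in 14 of 23 alternative fits. With that covariate the fold change was -0.11. OHT replicates 1 and 3 had the smallest library totals, so the covariate is partly tied to the OHT group. Whether depth had a part in the fall was not tested. The inhibitor gave -0.11 (95% CI -0.25 to 0.02; -0.04 without IACS replicate 3) in nonprimed and 0.02 (95% CI -0.11 to 0.15) in primed cells.

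Abca1 encodes the transporter that loads cholesterol onto poorly lipidated apolipoproteins, and it is a target gene of the LXRs. It stood at 1.44, 1.49 and 1.66 RPKM in the untreated libraries and at 0.517, 0.796 and 0.516 in the OHT libraries. In the IACS libraries it was at 1.33, 1.25 and 1.72 RPKM, and in the OHT_IACS libraries at 1.24, 0.859 and 0.95. OHT libraries were the lowest, OHT_IACS libraries came next, and the untreated and IACS libraries overlapped at the top. After scaling, the OHT_IACS and IACS libraries overlapped as well. Abca1 fell by 1.24 in OHT against untreated (log2, SE 0.20, limma adjusted p 0.00031), and the size depended on the pseudocount, with a fall by 0.67 at a pseudocount of 1 in place of 0.1. Within OHT, the deeper replicate 2 was the highest, at 0.796 RPKM. With the library total as a covariate the fold change was -1.14 (adjusted p 0.0085), and without OHT replicate 2 it was -1.41 (adjusted p 0.00018).

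The inhibitor gave Abca1 a log2 fold change of 0.66 in primed cells (SE 0.20, limma adjusted p 0.027), with all OHT_IACS libraries above all OHT libraries. This call held in 15 of 22 alternative fits and was lost without OHT replicate 1 (adjusted p 0.084), OHT replicate 3 (0.092), OHT_IACS replicate 1 (0.11) or OHT_IACS replicate 3 (0.058), with no filter (0.051), with quantile normalization (0.074) and in a fit of only the groups compared (0.078). At a pseudocount of 1 the value was 0.32. In nonprimed cells the inhibitor gave -0.12 (95% CI -0.54 to 0.30, adjusted p 0.72), with -0.02 without IACS replicate 2 and -0.27 without IACS replicate 3. For OHT under the inhibitor the value was -0.46 (95% CI -0.88 to -0.04, adjusted p 0.1), which passed with voom (0.018) and was -0.27 at a pseudocount of 1. The Abca1 window lies at chr4:53159846-53160145 (- strand).
Abca1 promoter: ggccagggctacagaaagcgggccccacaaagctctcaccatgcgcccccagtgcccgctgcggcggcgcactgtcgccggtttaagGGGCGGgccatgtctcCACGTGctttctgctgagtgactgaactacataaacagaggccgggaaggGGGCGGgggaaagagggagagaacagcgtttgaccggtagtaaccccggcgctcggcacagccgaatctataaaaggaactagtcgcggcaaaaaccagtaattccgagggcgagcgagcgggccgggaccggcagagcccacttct
It held 1 E-box, 147 bases before the start, and 2 GC boxes.

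Abcg1 encodes the transporter that passes cholesterol to mature high-density lipoprotein particles, and it is likewise a target gene of the LXRs. It stood at 4.15, 4.00 and 4.39 RPKM in the untreated libraries, at 2.29, 3.00 and 2.69 in the OHT libraries, at 6.06, 6.03 and 5.45 in the IACS libraries and at 4.58, 4.43 and 4.85 in the OHT_IACS libraries. No groups overlapped in RPKM as deposited: OHT was lowest (2.66 ± 0.358 RPKM, SD, n = 3), then untreated (4.18 ± 0.196), OHT_IACS (4.62 ± 0.215) and IACS (5.85 ± 0.339). After scaling, untreated replicate 3 lay above OHT_IACS replicate 2, so the untreated and OHT_IACS groups overlapped. Abcg1 fell by 0.66 in OHT against untreated (log2, SE 0.08, limma adjusted p 4.9e-05) and by 0.33 in OHT_IACS against IACS (SE 0.08, adjusted p 0.011). It rose by 0.45 with the inhibitor in nonprimed cells (SE 0.08, adjusted p 0.003) and by 0.78 in primed cells (SE 0.08, adjusted p 3.3e-05). All 4 calls held in each of 23 alternative fits.

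Some marker genes moved beside the exporters. The myeloid gene Lyz2 averaged 1.76 RPKM untreated, 0.407 with OHT, 1.74 with the inhibitor and 0.53 with both. In the same order Cd14 averaged 0.788, 0.348, 0.904 and 0.470 RPKM, Itgam 0.847, 0.312, 1.02 and 0.342, and Mpo 12.8, 10.2, 11.4 and 9.10. The means of Lyz2, Cd14, Itgam and Mpo were lower with OHT than in the counterparts without it, and that of Emr1 was higher. Of the 6 myeloid markers, Csf1r was under 1 RPKM in every library, and no marker of the list was at 0 in all of them. Emr1 was the most abundant, with means of 16.6 RPKM untreated, 20.6 with OHT, 21.0 with the inhibitor and 27.4 with both. The summed myeloid markers were 33.3, 32.8 and 32.4 RPKM in the untreated libraries, 30.7, 33.8 and 31.4 with OHT, 37.7, 37.5 and 33.0 with the inhibitor and 37.1, 38.9 and 37.8 with both. Among the erythroid markers, of which 2 of 3 were in the table, Klf1 averaged 13.3 RPKM untreated, 9.53 with OHT, 6.96 with the inhibitor and 5.10 with both. The sum of Gata1, the more abundant, and Klf1 was 40.3, 40.4 and 40.5 RPKM untreated, 40.9, 43.2 and 41.2 with OHT, 37.9, 36.6 and 32.4 with the inhibitor and 34.8, 34.6 and 35.0 with both. The B-lineage sum was 3.88, 3.96 and 4.60 RPKM untreated, 2.66, 2.75 and 2.76 with OHT, 5.11, 4.67 and 3.77 with the inhibitor and 2.26, 2.86 and 2.09 with both. Cd79b averaged 2.95 RPKM untreated, 1.36 with OHT, 3.13 with the inhibitor and 1.43 with both. Cd79a averaged 0.994, 1.09, 1.27 and 0.890 RPKM in the same order, and Vpreb1 0.184, 0.259, 0.104 and 0.0736. Their part in the results for the 9 genes was not tested.

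Mylip encodes an E3 ubiquitin ligase that targets lipoprotein receptors for degradation, and it too is a target gene of the LXRs. It stood at 1.80, 1.29 and 1.48 RPKM untreated and 1.71, 1.85 and 1.12 with OHT. With the inhibitor it stood at 2.38, 2.73 and 1.96 RPKM in nonprimed cells and at 2.14, 2.73 and 1.99 in primed cells. All 6 libraries with the inhibitor were above all 6 without it. The test did not call either difference: the log2 fold change was 0.57 (95% CI 0.16 to 0.98, limma adjusted p 0.057) in nonprimed and 0.54 (95% CI 0.13 to 0.95, adjusted p 0.054) in primed cells. The first passed in 7 of 22 alternative fits, among them voom (0.013) and the fit without OHT replicate 3 (0.024), and the second in 3 of 22, among them voom (0.032) and the fit without OHT replicate 2 (0.031). With a block by replicate number both passed (adjusted p 0.035 in nonprimed and 0.034 in primed cells). In primed cells the log2 fold change was 0.32 without OHT replicate 3 (adjusted p 0.21). OHT gave -0.01 (95% CI -0.41 to 0.40) without and -0.04 (95% CI -0.45 to 0.37) with the inhibitor.

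Whether the response to the inhibitor differed between primed and nonprimed cells was tested as an interaction, the log2 fold change in primed minus that in nonprimed cells. By limma 0 of the 9 genes passed, beside 0.144% of all genes (14 genes), and voom also called 0 of the 9. At an unadjusted p under 0.05 there were 5 of the 9, Srebf1, Scap, Insig2, Abca1 and Abcg1, beside 12.7% of all genes (1240 genes). The estimate was 0.30 for Srebf1 (95% CI 0.14 to 0.47, adjusted p 0.14), which had fallen with the inhibitor in nonprimed cells and not moved past the threshold in primed cells. It was 0.78 for Abca1 (95% CI 0.18 to 1.38), 0.33 for Abcg1 (95% CI 0.08 to 0.59) and -0.30 for Insig2 (95% CI -0.53 to -0.07), each with an adjusted p of 0.28. For Abca1 the estimate ranged from 0.40, at a pseudocount of 1, to 0.95 over the alternatives. For Insig1 it was 0.09 (95% CI -0.04 to 0.23, adjusted p 0.55). Abca1 and Insig2, which passed for the inhibitor in primed and not in nonprimed cells, were thus not shown to differ between the backgrounds. Without OHT replicate 2 the number of genes was 130 and Srebf1 passed (adjusted p 0.044). The number was lower without untreated replicate 1 (4), untreated replicate 2 (6), untreated replicate 3 (6), OHT replicate 1 (8), OHT replicate 3 (3), IACS replicate 1 (8), IACS replicate 2 (7), IACS replicate 3 (8), OHT_IACS replicate 1 (4) and OHT_IACS replicate 3 (3).

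**Figure D3:**
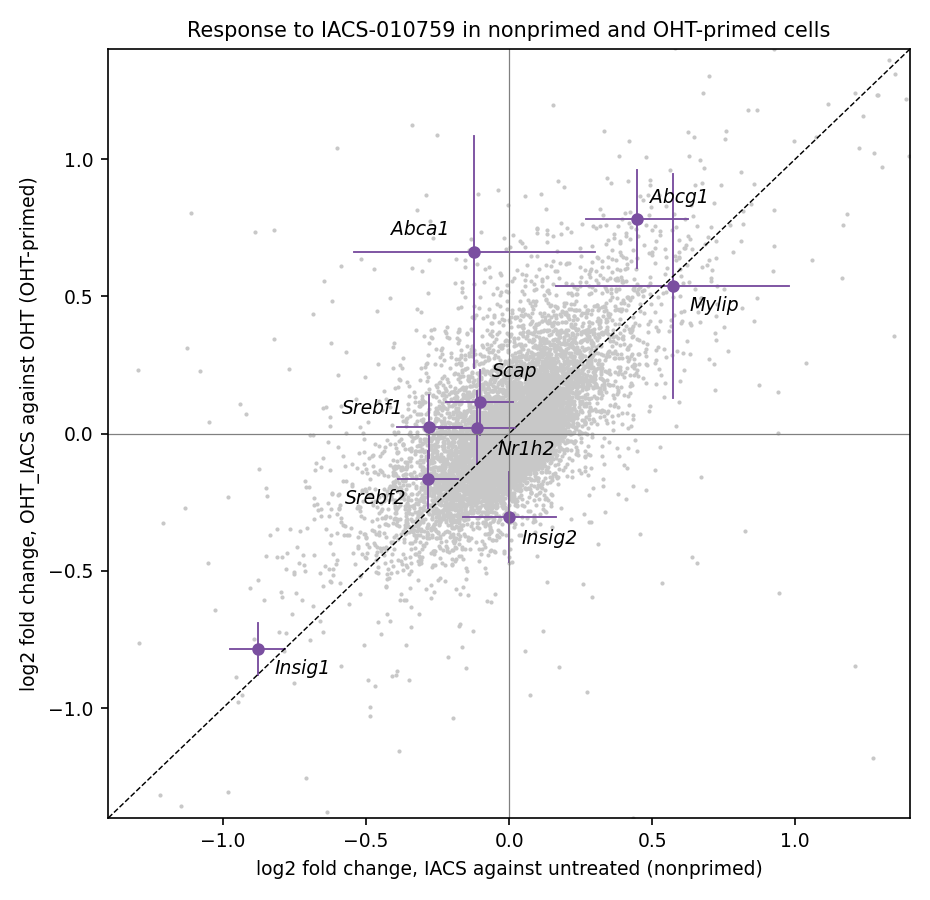
Log2 fold change with the inhibitor in nonprimed cells (x axis) against that in primed cells (y axis) for all genes tested (grey; 68 lie outside the axes) and for the 9 genes with 95% confidence intervals. Insig1 lies near the dashed line of equal response at -0.88 and -0.79, while Abca1 lies above it at -0.12 and 0.66.

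RPKM is per length, so mean levels can be ordered between genes. In untreated cells the order was Srebf1 (24.8 RPKM), Insig1 (23.9), Scap (18.5), Nr1h2 (16.4), Srebf2 (13.6), Abcg1 (4.18), Insig2 (3.10), Abca1 (1.53) and Mylip (1.52). Of these neighbours, Srebf1 and Insig1 overlapped, as did Abca1 and Mylip. With OHT, Insig1 (26.4 RPKM) came first, above Srebf1 (20.9), Srebf2 (17.6) and Scap (16.6), the last pair overlapping, and then Nr1h2 (14.8), Insig2 (3.21), Abcg1 (2.66), Mylip (1.56) and Abca1 (0.61). Insig2 was above Abcg1 in that group alone.

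With the inhibitor the order of mean levels was Srebf1 (20.8 RPKM), Scap (17.5), Nr1h2 (15.5), Insig1 (13.2), Srebf2 (11.4), Abcg1 (5.85), Insig2 (3.16), Mylip (2.36) and Abca1 (1.44), with an overlap between Nr1h2 and Insig1. With both agents it was Srebf1 (21.2 RPKM), Scap (17.9), Srebf2 (15.6), Insig1 (15.3), Nr1h2 (15.0), Abcg1 (4.62), Insig2 (2.58), Mylip (2.28) and Abca1 (1.01). Srebf2 overlapped Insig1 there, Insig1 overlapped Nr1h2, and Insig2 overlapped Mylip. Srebf1, Srebf2, Scap, Insig1 and Nr1h2 stood above the exporters, Insig2 and Mylip in every group, and Insig1 moved most among those 5.

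As a description of pattern, the genes with the highest Pearson r to each of the 9 over the 12 libraries, which share their conditions and depth, were as follows. Insig1 was most like Tatdn2 (r 0.98), Egln3 (0.976) and Acat2 (0.973), the last an enzyme of the mevalonate route. Srebf2 was most like Slc2a1 (0.976), Alkbh5 (0.972) and Spns1 (0.969), and Abcg1 most like Arhgap26 (0.981), Man2b2 (0.98) and Susd1 (0.98). Abca1 followed Dusp4 (0.969), Pcx (0.965) and Tex2 (0.958). Srebf1 followed Adora2a (0.935), Cnp (0.932) and Rps6ka4 (0.929), and Insig2 followed Rangrf (0.939), Uspl1 (0.883) and 2810004N23Rik (0.877). Mylip followed Zbtb12 (0.928), Ccdc91 (0.916) and Ufl1 (0.916). Nr1h2 followed Adck5 (0.915), Kctd10 (0.905) and Ndufaf3 (0.904), and Scap followed Nab2 (0.821) and Trim58 (0.815).

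Genes around the 9 were followed as lists, to be read beside the shares of all genes: 18.2% rose and 18.2% fell with OHT, 8.15% rose and 7.74% fell with the inhibitor in nonprimed cells, and 11.9% rose and 11.8% fell in primed cells. Of 25 genes that process SREBPs or act on INSIG and SCAP, all tested, 4 rose and 2 fell with OHT, with Sec31a at 0.51 and Erlin1 at 0.37. With the inhibitor 2 fell in nonprimed cells, Rnf145 at -0.43 and Sar1b at -0.27, and Sec31a rose, at 0.18. In primed cells 2 fell, Ufd1l at -0.42 and Rnf145 at -0.33. The counts of this list were close to or under those shares, so they are no result about the list. Medians were 0.04, 0.02 and 0.01 in these 3 comparisons, beside 0.01, 0.00 and -0.01 over all genes. Rnf145, a ligase that acts on SCAP, and Ufd1l passed in each of 23 alternative fits. The OHT count of 4 was 2 without untreated replicate 2, untreated replicate 3, OHT replicate 1 or OHT replicate 3. Without any 1 of the 6 libraries compared Sar1b was not called (adjusted p 0.054 to 0.15), and Sec31a was not called in nonprimed cells without untreated replicates 1 or 2, IACS replicates 1 or 3 or any OHT_IACS library (0.055 to 0.19). In primed cells the list had 5 genes that fell without OHT replicate 2.

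Of 23 genes of lipoprotein uptake and intracellular sterol transport, 17 were tested. With OHT 6 rose and 3 fell, with Osbpl5 at 1.03 (0.62 at a pseudocount of 1) and Stard4, a cytosolic sterol carrier, at 0.94. The inhibitor lowered 5 and raised 1 in nonprimed cells, with Scarb1, the receptor for high-density lipoprotein, at -0.50, Stard3 at -0.32, Lipa at -0.22 and Stard5 at 0.41. In primed cells it lowered 4, with Lipa at -0.25, Stard4 at -0.22 and Tmem97 at -0.22, and raised Gramd1a at 0.26. Medians were -0.03, -0.03 and -0.02. In nonprimed cells 3 fell without any 1 of the untreated or IACS libraries, Lipa being lost each time (adjusted p 0.052 to 0.1), and Stard5 was lost without any untreated library or IACS replicates 2 or 3 (0.056 to 0.092). In primed cells 1 fell without OHT_IACS replicate 2 and 2 without OHT replicate 3. There Gramd1a was lost without OHT replicates 1 or 3 or OHT_IACS replicates 1 or 2 (0.06 to 0.099), Tmem97 without OHT replicates 1 or 3 or OHT_IACS replicates 2 or 3 (0.054 to 0.067) and Lipa without OHT_IACS replicate 2 (0.056); without OHT replicate 2, 2 genes rose.

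Of 12 LXR partners and other LXR targets 5 were tested, and Abca2, a transporter, moved in the same direction as Abcg1 in all 3 comparisons. With OHT 2 fell, Abca2 at -0.79 and Abca7 at -0.77, and 1 gene rose. In primed cells Abca2 was at 0.75, Abca7 at 0.47 and the corepressor Ncor1 at 0.37, 3 of 5 that rose. In nonprimed cells Abca2 at 0.29 and Ncor1 at 0.27 rose, the latter lost without any untreated library or IACS replicates 1 or 3 (adjusted p 0.073 to 0.13). The medians were -0.14 with OHT, 0.14 in nonprimed and 0.37 in primed cells, from 5 genes.  Of 5 oxysterol enzymes 1 was tested, with values of -0.09, -0.19 and -0.08 that did not pass; without IACS replicate 2 it passed in nonprimed cells.

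The targets that SREBPs drive gave a frame for Insig1. Of 20 sterol biosynthesis genes 19 were tested, of which the inhibitor lowered 17 in nonprimed and 18 in primed cells (medians -0.44 and -0.32), with Dhcr7 at -0.86 and -0.61 and Mvd at -0.75 and -0.51. Pmvk stood at -0.78 and Mvk at -0.66 in nonprimed cells, and Cyp51 and Lss both stood at -0.54 in primed cells. With OHT 7 rose and 2 fell (median 0.13), led by Mvk at 0.67 and Lss at 0.44. In OHT_IACS against IACS 13 rose and 1 fell (median 0.27), beside 12.3% and 14.2% of all genes. With single libraries left out, 10 to 13 rose. The fall of Insig1 exceeded both medians. Of 15 fatty acid targets 13 were tested: 5 rose with OHT (median 0.12; Me1 at 0.46, Gpam at 0.45), and the inhibitor lowered 6 in nonprimed (median -0.10; Lpin1 at -0.76, Elovl6 at -0.46, Fads2 at -0.40, Fasn at -0.29) and 4 in primed cells, where 1 rose (median -0.12; Lpin1 at -0.66, Elovl6 at -0.49, Scd2 at -0.23, Elovl5 at -0.23). In OHT_IACS against IACS 7 of these 13 rose and 0 fell (median 0.19), and 5 to 7 rose with single libraries left out. At a pseudocount of 1 Lpin1 stood at -0.43 in nonprimed and -0.37 in primed cells. The count of 6 was 3 without untreated replicate 2 or IACS replicates 1 or 2, and the 1 that rose in primed cells was lost without OHT replicate 3 or any OHT_IACS library. Fasn was lost without untreated replicates 2 or 3 or IACS replicates 1 or 2 (adjusted p 0.063 to 0.099), and Scd2 without OHT replicates 1 or 3 or any OHT_IACS library (0.06 to 0.094).

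**Figure D4:**
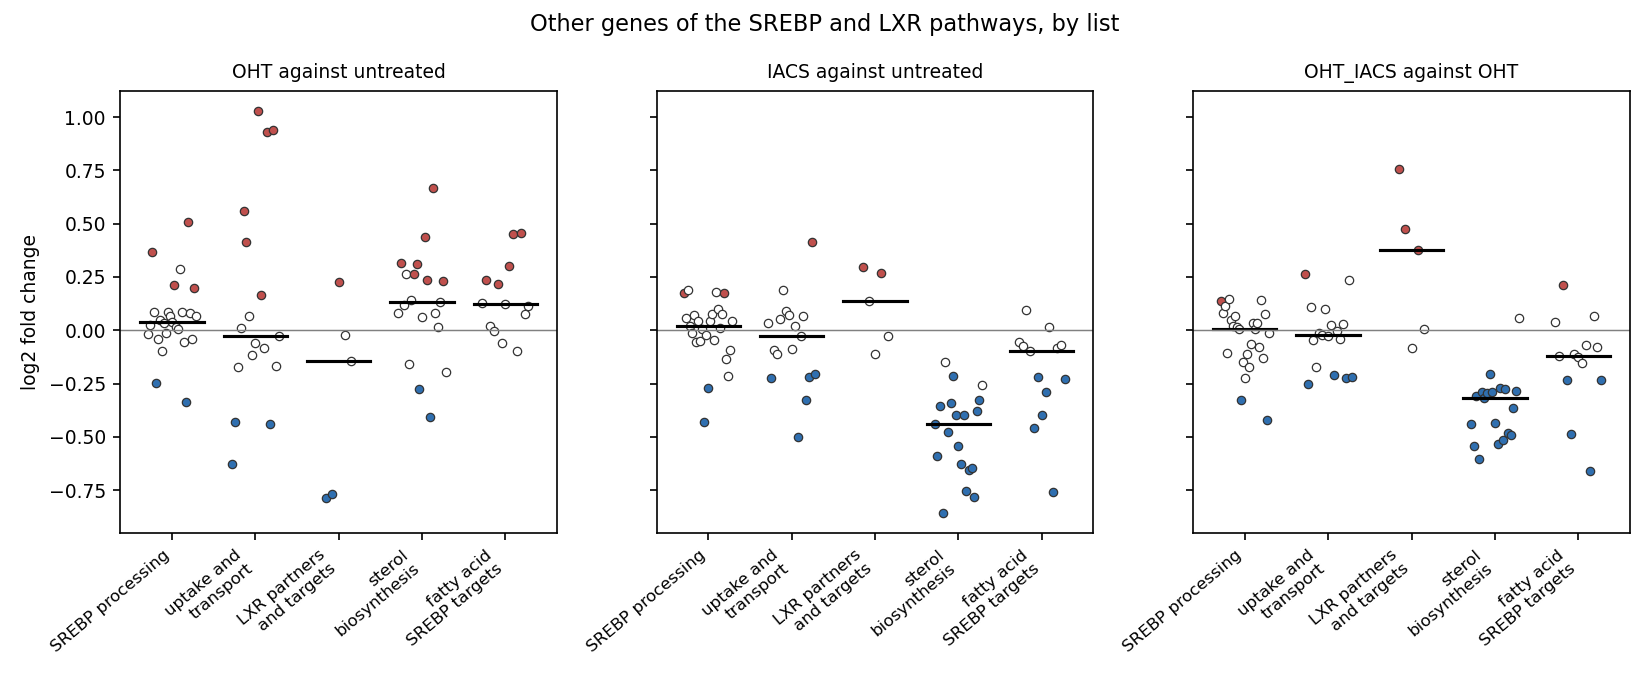
Log2 fold changes of the tested genes of 5 lists in 3 comparisons, as points filled in red (rose) or blue (fell) where the adjusted p was under 0.05, with the median of each list as a line. Of 19 sterol biosynthesis genes 17 fell in nonprimed and 18 in primed cells.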

How the data were processed

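The data were RPKM values per gene for 12 RNA-seq libraries (Illumina stranded total RNA after ribosomal RNA depletion), computed and deposited by the authors. The submitters name the mm9 build, TopHat2 2.0.8, SAMtools, featureCounts 1.4.5-p1 and DESeq2. Neither the gene annotation nor the strandedness of counting was given in the sources used here. The authors' comparison columns (6, with log2 fold changes and adjusted p-values from DESeq2) were not used.

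Libraries were scaled by median ratios, and log2(RPKM + 0.1) was fitted with limma 3.58.1 in R 4.3.3 over all 12 libraries, without a block, for the 9745 genes with at least 1 RPKM in at least 3 libraries. Moderated tests (eBayes with a trend) were two-sided, with Benjamini-Hochberg adjustment over all genes tested in each of 5 comparisons and a threshold of 0.05. Values and means are printed in RPKM as deposited, and fold changes come from the fit. Steps between RPKM values gave whole reads for 15451 of 15451 genes above 0 (relative tolerance 1e-06), from which library totals were worked out.

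The members and lists were chosen with earlier results of these data known. All 9 members are named. Of each other list, the called genes with the 4 largest absolute log2 fold changes are named for the inhibitor comparisons and the 2 largest for OHT, and for each member the 3 genes with the highest Pearson r; a few items under these rules are not reported here. Alternatives were RPKM without rescaling, quantile normalization, pseudocounts of 0.01 and 1, a stricter filter on low values and none, a block by replicate number, no trend, the library total as a covariate, voom on the whole reads, only the groups compared, and each library left out in turn. Gene positions and overlaps were read from GENCODE on GRCm38, and motifs were searched on both strands of RefSeq promoter windows (GRCm38.p6). Tables were made in pandas 2.3.3 and numpy 2.4.6 and plots in matplotlib 3.10.9, under python 3.11.15.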

Additional observations from a re-analysis of the deposited data

Results flagged for a closer look

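Scap did not pass the test for the inhibitor in either background, but its values lay on opposite sides: after scaling, all 3 IACS libraries were below the untreated mean and all 3 OHT_IACS libraries were above the OHT mean. The log2 fold change in primed minus that in nonprimed cells was 0.22 (0.216), with a 95% CI of 0.05 to 0.38. Without OHT_IACS replicate 1 the primed Scap value was 0.05 (adjusted p 0.52), against 0.11 with all libraries. The test of the difference between the backgrounds did not pass (limma, unadjusted p 0.015, Benjamini-Hochberg adjusted p 0.28). Groups of 3 were not tested for single outlying libraries.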

How the results depend on the processing

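Of 2064 log2 fold changes under the alternatives, 1899 kept their direction and side of the threshold, 127 lost a call, 12 gained one, 26 changed sign without passing either way and 0 reversed a call; of 1104 list counts, 997 stayed within 1.5 times the value reported and 107 did not. Of the members 7 were called in OHT against untreated, but 4 with RPKM as deposited and 4 with the library total as a covariate, which also called 2351 genes in place of 3546. In OHT_IACS against OHT 5 members were called, but 3 with the stricter filter, which does not test Abca1, Insig2 and Mylip, 3 with quantile normalization and 2 with only the groups compared. For the interaction 14 genes were called, but 7 with no filter, 5 with RPKM as deposited, 34 with quantile normalization, 7 with a replicate block, 5 with the covariate and 25 with voom. Apart from the stricter filter, the cause was not tested. The interaction needs all 4 groups, so the fit of only the groups compared was not run for it.

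Leaving out each library in turn, the members called ranged from 4 to 7 in OHT against untreated, 3 to 5 in OHT_IACS against OHT and 0 to 1 for the interaction. The genes called ranged from 951 to 1809 in IACS against untreated (1548 with all), from 1524 to 2951 in OHT_IACS against OHT (2310 with all) and from 3 to 130 for the interaction. A block by replicate number called 3593 genes for OHT and 1486 for IACS, each against untreated, and 2256 for OHT_IACS against OHT and 2532 against IACS. By correlations of deviations from the group means, libraries with the same number were not more alike than other pairs. The correlations were -0.172 to 0.104 (median -0.0351, 18 pairs) for the same number and -0.182 to 0.168 (median 0.00549, 36 pairs) for other pairs. These ranges cannot show whether same-numbered libraries shared a culture or a preparation. The members with the fewest reads were Mylip, with 36 to 112 in a library, Abca1, with 55 to 243, and Insig2, with 79 to 126. How far depth limited the precision for these genes was not tested.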
